A study of Mus musculus with 40 samples.

Results

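Genes of iron and haem handling were followed through polyadenylated RNA, nascent RNA, transcription factor peaks and histone marks of mouse macrophages. The 9 genes were Alas1, Hmox1, Slc40a1, Slc11a1, Slc39a14, Fth1, Ftl1, Tfrc and Lcn2. They were found by symbol in the expression table, which holds 22865 genes, and each was represented by its transcript with the highest mean RNA-Seq level. Factor peaks were taken where they were centred within 50000 bases of that transcript's start, and histone regions where any part lay in that window, with cover counted inside it. The cells were peritoneal macrophages drawn out with thioglycollate, washed from the cavity and plated overnight, from the inbred strains C57BL6/J and BALBc/J, neither of which carries an engineered allele according to the labels. All groups therefore share the thioglycollate elicitation and the overnight culture, and the labels give no age. One group per strain had no treatment, and the others received Kdo2-lipid A (KLA), a Toll-like receptor 4 agonist, at 100 ng/ml for 1 hr or, in RNA-Seq only, also for 4 hr. RNA-Seq had 6 libraries and GRO-Seq, which captures RNA still held by the polymerase, had 4, with 1 library for each strain and treatment. ChIP-Seq gave 20 lists, of PU.1, C/EBPa, H3K4me2 and H3K27Ac with 1 list per strain and treatment, and of the NF-kB subunit p65 after KLA with 2 replicates per strain. No label says that libraries came from separate animals, so the p-values measure the spread between these libraries only, which may be technical.

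A macrophage takes in iron bound to transferrin through the transferrin receptor (Tfrc) and iron that is not bound to transferrin through transporters such as Slc39a14, and it recovers iron from swallowed red cells by opening the haem ring with haem oxygenase (Hmox1). Iron is stored in shells of ferritin heavy and light chains (Fth1, Ftl1) and leaves the cell through ferroportin (Slc40a1), the known iron exporter of mammalian cells. Slc11a1 (Nramp1) pumps divalent metals out of the phagosome, Lcn2 (lipocalin 2) binds bacterial siderophores and so keeps iron from bacteria, and Alas1 catalyses the first step of haem synthesis in cells other than red cell precursors. In inflammation, macrophages are known for holding iron back from the circulation.

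The promoters of Lcn2 and Alas1 are shown because the largest change after KLA (Lcn2) and the largest strain difference (Alas1) among these genes were measured there, and because p65 peaks lay over both. They are 300 bases each, from 250 before to 50 after the start, from RefSeq on GRCm38.p6 (all peak positions are on mm9, and the builds were compared only by distance from the start). Capitals mark the letters of a loose outline of a p65 site (GGNNNNNCC, the same on both strands) or of a C/EBP pattern (TTGCNNAA), searched on both strands. The Lcn2 window is chr2:32387690-32387989 on the minus strand and the Alas1 window is chr9:106247905-106248204 on the minus strand.
Lcn2: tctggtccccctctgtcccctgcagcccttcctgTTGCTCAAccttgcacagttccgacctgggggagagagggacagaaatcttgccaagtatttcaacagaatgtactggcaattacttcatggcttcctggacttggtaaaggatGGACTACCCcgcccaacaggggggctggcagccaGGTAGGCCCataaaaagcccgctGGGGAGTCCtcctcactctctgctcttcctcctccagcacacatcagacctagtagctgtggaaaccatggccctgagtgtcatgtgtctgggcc
Alas1: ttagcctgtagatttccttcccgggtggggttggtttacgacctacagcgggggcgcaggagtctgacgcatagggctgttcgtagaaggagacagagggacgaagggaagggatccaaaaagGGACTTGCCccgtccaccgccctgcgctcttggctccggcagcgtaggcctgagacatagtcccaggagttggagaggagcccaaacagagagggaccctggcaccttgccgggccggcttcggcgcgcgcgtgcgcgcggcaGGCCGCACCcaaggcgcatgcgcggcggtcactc
In Lcn2 the C/EBP pattern began at -216 and the p65 outline at -102, -68 and -45 bases from the start (negative is upstream). In Alas1 the p65 outline began at -127 and at 16, and no matches overlapped. RefSeq gives another Alas1 start, at 106247730 on GRCm38.p6, whose window is not shown. Counted from that start, the outline began at -208, -182, -49 and -22. Of all 32851 promoters of this length, 72.8% hold the p65 outline and 10.8% the C/EBP pattern, so a match describes the letters and is not a binding site. A PU.1 and ETS pattern (GGAAGT, in 23.8% of promoters) and an NRF2 and BACH1 pattern (TGACNNNGC, in 12.4%) had no match in the 2 windows shown. Of the 9 genes, 6 matched an entry of the promoter table.

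On mm9, as the authors' table gives them, Alas1 (NM_020559) lies at chr9:106135785-106150285 and Lcn2 (NM_008491) at chr2:32240156-32243259, both on the minus strand. Hmox1 (NM_010442) lies at chr8:77617516-77624492, Tfrc (NM_011638) at chr16:32608981-32632880, Fth1 (NM_010239) at chr19:10057192-10059582 and Slc11a1 (NM_013612) at chr1:74421776-74432625, all on the plus strand. Slc40a1 (NM_016917) lies at chr1:45964914-45982439, Slc39a14 (NM_144808) at chr14:70703273-70751231 and Ftl1 (NM_010240) at chr7:52713313-52715256, all on the minus strand. Slc39a14 has 3 transcripts in the table and each of the others 1, and no other gene of the table overlaps the span of any of the 9.

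Levels are given as exon tags for every 10 M tags sequenced, and comparisons between genes were made per kb of transcript. Without treatment, Fth1 was the highest of the 9 RNAs at 104171 tags per 10 M per kb in C57BL6/J and 113206 in BALBc/J. Hmox1 followed at 3565 and 2601, and Slc11a1 at 1687 and 1454. Tfrc was at 1490 and 1333, Ftl1 at 1427 and 1138, and Alas1 at 1121 in C57BL6/J but 304 in BALBc/J. Slc40a1 was at 40.2 and 42.6, Slc39a14 at 24.1 and 33.3, and Lcn2 at 6.90 and 7.93. The order was the same in both strains, but the ranges over the strains of Slc11a1 and Tfrc overlapped, as did those of Tfrc and Ftl1. Both ferritin genes have processed pseudogenes, and the counting of tags that match more than 1 place was not given in the sources used here, which leaves the levels of Fth1 and Ftl1 uncertain.

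The libraries match their label as macrophages. All 10 defining macrophage genes (such as Emr1, Csf1r and Cd68) were detected, with a summed RNA-Seq level of 81782 to 106993 tags per 10 M. Erythroid genes, a possible source of haem pathway RNA, summed to at most 4.71 tags per 10 M in any library, with Hba-a1, Hba-a2 and Slc4a1 at 0 in every one and the others in the table, among them Hbb-b1, Alas2 and Klf1, at or near 0. Depth was 17.0 to 20.3 M tags in RNA-Seq (88.7 to 90.6% in exons), 39.4 to 48.3 M in GRO-Seq (7.39 to 9.83% in exons) and 7.10 to 14.4 M in ChIP-Seq.

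After 4 hr of KLA, the transporter Slc39a14 and the siderophore-binding protein Lcn2 rose and haem oxygenase Hmox1 and the exporter Slc40a1 fell, in both strains, though Hmox1 by less than the size set for a call relative to the median gene. The question here was which response to the agonist the macrophages of both strains have in common. The call rule was an adjusted p below 0.05 together with a change of 1 or more in log2(tags per 10 M + 10), in a limma fit over all genes with additive terms for strain and treatment, so that the strains act as the replicates of a treatment. By it, 2 of the 9 genes were higher and 2 lower at 4 hr, where 29.4% of the 10692 genes tested were called, 8.1% higher and 21.3% lower. After 1 hr none of the 9 was called by limma, where 3.25% of all genes were (1.82% higher, 1.43% lower), and 1 of the 9 (Slc11a1, unadjusted p = 0.0438, log2 change -0.38 ± 0.16 SE) had an unadjusted p under 0.05. The median change over all tested genes was -0.21 at 1 hr and -0.47 at 4 hr, so values relative to that median are given where the call depends on it. With libraries centred on their median gene, 2.98% of genes were called at 1 hr, 2.25% higher and 0.73% lower, and 21.4% at 4 hr, 11.7% higher and 9.74% lower.

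**Figure D1:**
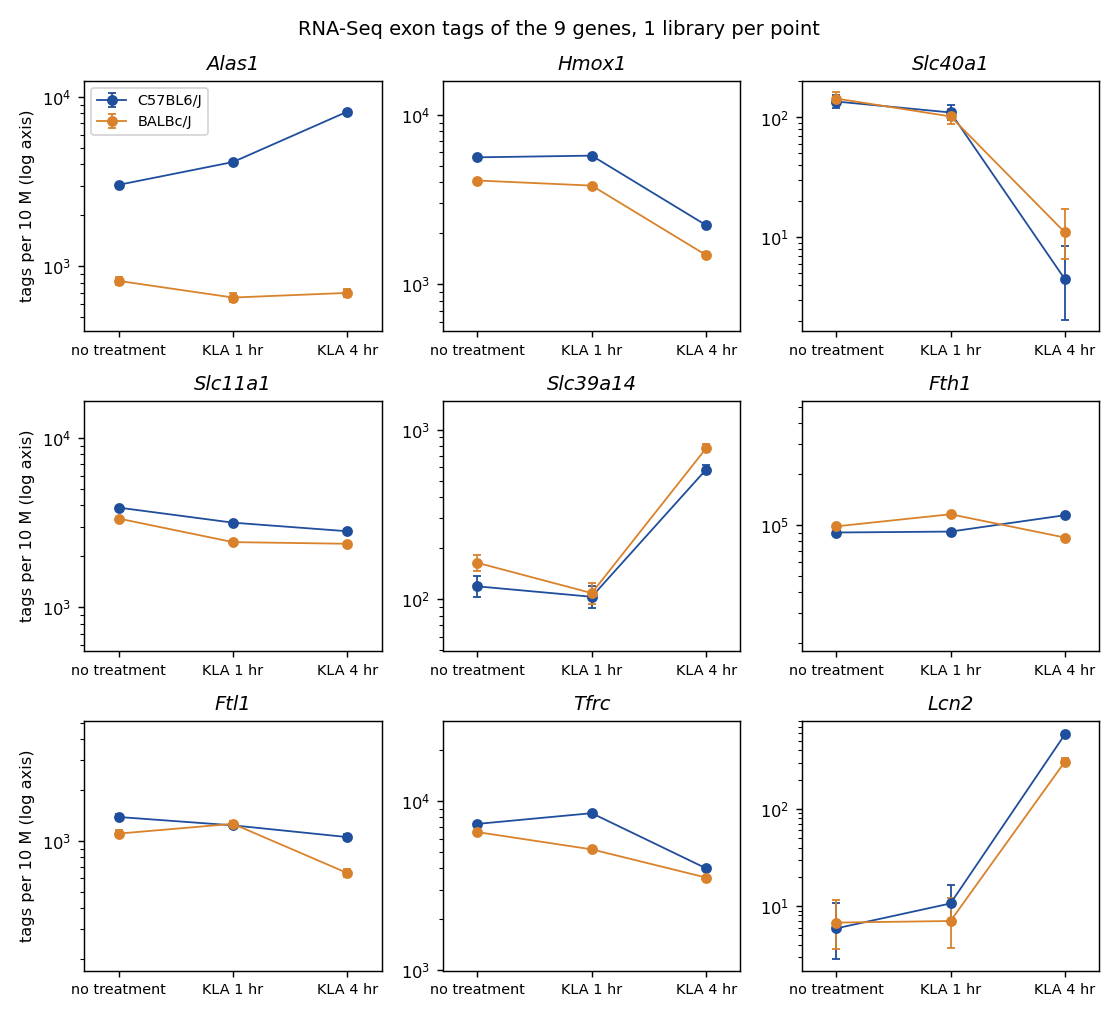
RNA-Seq exon tags per 10 M tags (vertical log axis, each spanning at least 30-fold) of the 9 genes without treatment and after KLA for 1 hr and 4 hr; each point is 1 library, blue C57BL6/J and orange BALBc/J, and bars are 95% exact Poisson intervals, which cover counting error only. Alas1 separates the strains at every time, Lcn2 and Slc39a14 are high at 4 hr, and Slc40a1 reaches 4.44 and 10.9 tags per 10 M at 4 hr.

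Lcn2 was near the limit of detection before it rose. In C57BL6/J it was at 5.89, 10.6 and 584 tags per 10 M without treatment, at 1 hr and at 4 hr, and in BALBc/J at 6.76, 7.02 and 306. The untreated values rest on 10 and 13 tags. At 4 hr both libraries were above all 4 others, and the fitted change was 4.73 ± 0.26 (SE, adjusted p = 6.7e-06). The C57BL6/J response was 5.22 and the BALBc/J response 4.24 on the log2 scale. Nascent Lcn2 RNA was too low to be tested, at 2.79 and 8.17 tags per 10 M in C57BL6/J (untreated, then KLA) and 1.66 and 4.70 in BALBc/J.

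Neutrophils also make Lcn2. The neutrophil list, of which 11 of 12 genes are in the table and Lcn2 is one, summed to 241 to 350 tags per 10 M without treatment and 543 to 1076 at 4 hr. Without Lcn2 the sums were 345, 449 and 492 in C57BL6/J and 235, 252 and 238 in BALBc/J (no treatment, 1 hr, 4 hr). Ngp was at 0 in every library and S100a9, Mpo, Elane, Camp and Retnlg were each below 2 tags per 10 M in every one, while S100a8 rose by 1.08 ± 0.20 at 4 hr (adjusted p = 0.0029). The other neutrophil genes with signal were lower at 4 hr than without treatment in both strains: Mmp8 went from 187 to 146 tags per 10 M in C57BL6/J and from 140 to 82.8 in BALBc/J, and was not called. Ltf (11.8 to 0.987, and 7.28 to 2.88) and Cxcr2 (11.2 to 2.47, and 8.32 to 0) were too low to be tested.

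At the Lcn2 start, p65, C/EBPa and PU.1 each had a peak in every list after KLA, and p65 had no untreated list. The 4 p65 lists had a peak there of 134 and 141 tags per 10 M in the C57BL6/J replicates and 114 and 131 in the BALBc/J replicates, centred at -190 to -220. C/EBPa peaks at the same place had 89.6 tags per 10 M in C57BL6/J and 90.2 in BALBc/J after KLA. Without treatment BALBc/J had one of 22.8 and the C57BL6/J list had none. PU.1 peaks of 16.5 and 14.3 tags per 10 M were called there after KLA, and neither untreated list had one. A list shows a peak only above the authors' threshold, so a missing peak may be a weak one. No H3K4me2 or H3K27Ac region of any list lay over the Lcn2 start, and within 50000 bases the H3K27Ac regions covered 11.6 to 15.1 kb.

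Slc39a14, which carries iron not bound to transferrin as well as zinc and manganese, rose at 4 hr in polyadenylated RNA and at 1 hr in nascent RNA. Its RNA-Seq level was 119, 103 and 582 tags per 10 M in C57BL6/J and 164, 109 and 778 in BALBc/J without treatment, at 1 hr and at 4 hr. Both 4 hr libraries were above all others, with a fitted change of 2.19 ± 0.19 (adjusted p = 6.6e-05), and the strains responded by 2.20 and 2.18. Nascent RNA was at 74.4 and 146 tags per 10 M in C57BL6/J and 49.3 and 142 in BALBc/J without treatment and after 1 hr. In GRO-Seq, 7 of the 9 genes passed the filter on low values, and 1 of these was higher and 2 were lower after KLA, where 19.8% of the 9109 genes tested were called, 4.31% higher and 15.5% lower. Slc39a14 was the higher one, by 1.12 ± 0.34 (adjusted p = 0.0064), and by 1.47 relative to the median gene, which moved by -0.34. With GRO-Seq libraries centred on it, 13.9% of genes were called, 6.78% higher and 7.08% lower. GRO-Seq p-values rest on a spread pooled over genes, since 1 residual degree of freedom remained.

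The chromatin around Slc39a14 also differed between untreated and treated lists. H3K27Ac regions, which mark active promoters and enhancers, covered 6.97 kb of its window in C57BL6/J and 5.71 kb in BALBc/J without treatment, and 20.7 kb and 22.9 kb after KLA. Over its start the region held 40.8 and 25.2 tags per 10 M without treatment and 242 and 167 after KLA, at lengths of 1.03, 0.889, 2.85 and 2.05 kb. In the whole genome the H3K27Ac cover was 56.6 and 57.5 Mb without treatment and 51.8 and 53.0 Mb after KLA, so the larger cover at Slc39a14 was not shared by the lists as a whole. Histone regions had 1 list per condition and different lengths, and were not tested.

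C/EBPa binding rose at 2 sites of Slc39a14. The stronger, at 21211 bases inside the gene's span, had 44.1 and 70.1 tags per 10 M without treatment (C57BL6/J, BALBc/J) and 191 and 255 after KLA, a change of 1.97 ± 0.19 (adjusted p = 8.6e-08). The same place carried the strongest p65 peak of the gene, with 551 and 773 tags per 10 M in the C57BL6/J replicates and 514 and 588 in the BALBc/J replicates. The other C/EBPa site, at -3383, changed by 1.07 ± 0.31 (adjusted p = 0.011), and a PU.1 site at 48310 rose by 1.18 ± 0.27 (adjusted p = 0.00011). Slc39a14 had no p65 or C/EBPa peak within 1 kb of its start in any list.

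**Figure D2:**
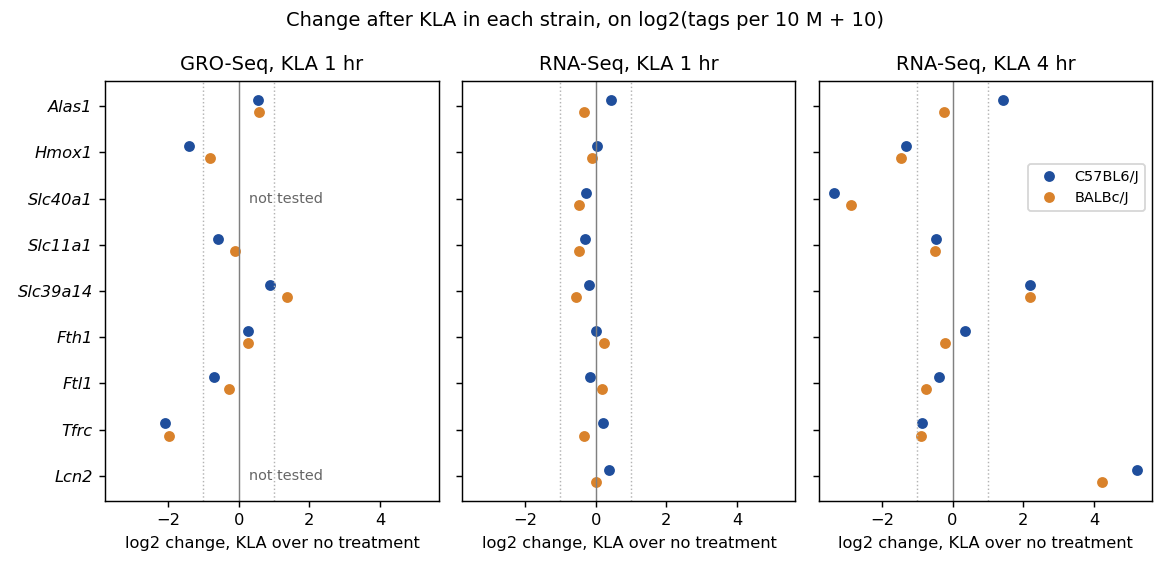
Change after KLA on log2(tags per 10 M + 10) in each strain (horizontal axis; blue C57BL6/J, orange BALBc/J) for nascent RNA at 1 hr and polyadenylated RNA at 1 hr and 4 hr; each point is 1 library against its untreated library, dotted lines mark a change of 1, and Slc40a1 and Lcn2 were not tested in GRO-Seq. Nascent Tfrc lies near -2 in both strains while its RNA-Seq points at 1 hr lie at 0.21 and -0.34.

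Tfrc, the transferrin receptor, fell in nascent RNA in both strains. GRO-Seq gave 237 and 48.1 tags per 10 M in C57BL6/J and 315 and 73.4 in BALBc/J without treatment and after 1 hr. The groups did not overlap and the fitted change was -2.03 ± 0.33 (adjusted p = 3.4e-08). Polyadenylated Tfrc RNA was at 7324, 8473 and 4002 tags per 10 M in C57BL6/J and 6552, 5181 and 3532 in BALBc/J. At 1 hr the strains lay on either side of their untreated levels, and the fitted change was -0.06 ± 0.19. At 4 hr both were below every other library, with a change of -0.88 ± 0.19 that passed the adjusted p (0.0050) but not the size set for a call. It would be called without the C57BL6/J untreated library (-1.02) or without the BALBc/J 4 hr library (-1.01).

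Around Tfrc, H3K27Ac regions covered 12.3 kb in C57BL6/J and 11.8 kb in BALBc/J without treatment and 0.500 and 1.30 kb after KLA. The region over the start, with 113 and 126 tags per 10 M, was listed only without treatment. In the whole lists the median H3K27Ac region held 86.6 and 75.7 tags per 10 M without treatment and 64.5 and 60.2 after KLA (C57BL6/J, BALBc/J). A region missing after KLA may therefore be a weak one. H3K4me2 regions, which mark promoters and enhancers whether active or not, lay over the start in all 4 lists with 1748 to 2084 tags per 10 M. Upstream, PU.1 fell at -45419 from 198 and 169 tags per 10 M to 85.8 and 79.4 (C57BL6/J, BALBc/J), by 1.14 on the log2 scale ± 0.15 (adjusted p = 5.4e-12), and C/EBPa fell beside it, at -45338, from 62.1 and 84.2 to 22.9 and 25.0 (log2 change -1.56 ± 0.30, adjusted p = 0.00039). Another PU.1 site at -38480 changed by -1.07 ± 0.19 (adjusted p = 6.0e-07, and -0.94, not called, relative to the median site).

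Slc11a1, the phagosomal metal transporter, was not called in any contrast. It was at 3886, 3166 and 2818 tags per 10 M in C57BL6/J and 3349, 2431 and 2376 in BALBc/J, and at 4 hr its change was -0.48 ± 0.16 (adjusted p = 0.033), which is -0.05 relative to the median gene. Nascent RNA was at 218 and 141 tags per 10 M in C57BL6/J and 178 and 165 in BALBc/J. Its start was occupied by all 3 factors in every list, PU.1 with 168 to 202, C/EBPa with 195 to 268 and p65 with 168 to 348 tags per 10 M. Inside the gene, at 6414, lay its strongest p65 peak, of 470 and 726 tags per 10 M in C57BL6/J and 517 and 642 in BALBc/J. PU.1 near that peak, at 6696, rose from 53.9 and 64.4 to 129 and 116 tags per 10 M (C57BL6/J, BALBc/J; change 1.04 ± 0.19, adjusted p = 6.8e-07), and C/EBPa rose upstream, at -6407, by 1.14 ± 0.25 (adjusted p = 0.0012). H3K27Ac covered 21.0 to 23.2 kb of its window in the 4 lists. The region over the start held 1243 and 549 tags per 10 M without treatment and 713 and 707 after KLA (C57BL6/J, BALBc/J). It was 5.3 and 4.21 kb long, then 8.46 and 9.65 kb. Per kb it held 235 and 130 tags per 10 M without treatment and 84 and 73 after KLA. In the whole lists the median H3K27Ac region also held fewer tags after KLA, as given for Tfrc.

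Ferroportin RNA was nearly absent after 4 hr. Slc40a1 was at 136, 110 and 4.44 tags per 10 M in C57BL6/J and 144, 102 and 10.9 in BALBc/J without treatment, at 1 hr and at 4 hr. The last values rest on 9 and 19 tags, and both lie below every other library. The change was -3.11 ± 0.22 (adjusted p = 2.4e-05), and -2.68 relative to the median gene. Nascent Slc40a1 was too low to be tested, at 8.89 and 4.57 tags per 10 M in C57BL6/J and 7.24 and 2.47 in BALBc/J. An H3K27Ac region over its start, of 34.3 and 35.9 tags per 10 M, was listed without treatment in both strains and after KLA in neither. The H3K4me2 region there stayed in all lists, with 657 to 896 tags per 10 M. An H3K27Ac region missing after KLA may be a weak one, as given for Tfrc. The window held 3 PU.1, 2 C/EBPa and 3 p65 sites, fewer than that of any other of the 9 genes. Its PU.1 site with the highest single value, at 44561, fell from 111 and 59.8 to 34.6 and 42.9 tags per 10 M (change -1.06 ± 0.24, adjusted p = 9.4e-05, and -0.93, not called, relative to the median site). The PU.1 site beside it, at 43975, was stronger in every list but the untreated C57BL6/J one and was not called. It went from 94 and 78.1 to 69.3 and 68.3 tags per 10 M (C57BL6/J, BALBc/J; change -0.31 ± 0.20, adjusted p = 0.25).

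The ferritin genes showed no called change in RNA. Fth1, which oxidises iron as it enters the ferritin shell, was at 90212, 91341 and 114132 tags per 10 M in C57BL6/J and 98037, 115636 and 84239 in BALBc/J, with a change at 4 hr of 0.06 ± 0.19 (adjusted p = 0.80). Ftl1, the chain that helps form the mineral core, was at 1384, 1236 and 1053 in C57BL6/J and 1104, 1261 and 646 in BALBc/J, with a change at 4 hr of -0.58 ± 0.21 (adjusted p = 0.044). Nascent Fth1 was at 349 and 420 tags per 10 M in C57BL6/J and 466 and 556 in BALBc/J, and nascent Ftl1 at 85.9 and 49.5 and at 82.6 and 67.0. The untreated and treated GRO-Seq ranges of Fth1 overlap between strains and those of Ftl1 do not, yet neither change was past the threshold.

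Binding upstream of Fth1 did change. The C/EBPa site at -4729 had 40.1 and 57.9 tags per 10 M without treatment (C57BL6/J, BALBc/J) and 284 and 276 after KLA, a change of 2.51 ± 0.19 (adjusted p = 4.1e-09). It coincided with the strongest p65 peak near any of the 9 genes, at -4762, with 916 and 1452 tags per 10 M in the C57BL6/J replicates and 1152 and 1706 in the BALBc/J replicates. Closer to the start, C/EBPa peaks at -114 to -161 held 96.2 to 125 tags per 10 M in the 4 lists. H3K27Ac covered more of the Fth1 window than of any other, 60.4 and 59.1 kb without treatment and 50.4 and 42.3 kb after KLA. Near Ftl1, the C/EBPa site at -29040 fell by 1.26 on the log2 scale ± 0.32 (adjusted p = 0.0039), while the peaks at -155 to -161 had 93.4 to 147 tags per 10 M.

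Haem oxygenase 1 fell in nascent RNA at 1 hr and in polyadenylated RNA at 4 hr. Hmox1 was at 5619, 5749 and 2233 tags per 10 M in C57BL6/J and 4099, 3826 and 1487 in BALBc/J, and both 4 hr libraries were below all others (change -1.39 ± 0.16, adjusted p = 0.00023). Nascent RNA was at 124 and 40.6 tags per 10 M in C57BL6/J and 141 and 76.4 in BALBc/J (change -1.10 ± 0.35, adjusted p = 0.0078). Both calls end when libraries are centred on their median gene, at -0.96 for RNA-Seq and -0.75 for GRO-Seq. In C57BL6/J its RNA was higher than in BALBc/J at all 3 times, by 0.54 ± 0.13 (adjusted p = 0.039), below the size set for a call.

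At the Hmox1 start H3K27Ac regions held 751 and 373 tags per 10 M without treatment and 126 and 103 after KLA, at lengths of 6.49 and 3.14 kb and then 2.34 and 1.94 kb (C57BL6/J, BALBc/J). The cover of its whole window was 19.6 and 19.1 kb before and 8.92 and 9.88 kb after. In the whole lists the median H3K27Ac region also held fewer tags after KLA, as given for Tfrc. The C/EBPa peak at the start, the strongest of that factor near Hmox1, stayed at 244 to 284 tags per 10 M in all lists. Far upstream, at -37723, C/EBPa fell from 68.1 and 70.1 to 15.3 and 17.3 tags per 10 M (change -2.02 ± 0.32, adjusted p = 3.6e-05). The strongest PU.1 and p65 peaks near Hmox1 lay together at -7384 and -7409, with up to 344 and 291 tags per 10 M.

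Over all 9 genes, 70 PU.1 sites present in all 4 lists could be tested, and after KLA 3 were higher and 3 lower, where 7.57% of the 43053 sites tested were called, 3.14% higher and 4.42% lower (7.06%, 4.29% and 2.76% relative to the median site). Relative to the median site 6 of the 70 were higher and 1 was lower. The third PU.1 site that rose lay at 37078 from Lcn2 (change 1.08 ± 0.15, adjusted p = 7.7e-12). Of 51 C/EBPa sites, 5 were higher and 3 lower, where 15.2% of 24059 were called, 6.81% higher and 8.41% lower (14.8%, 8.5% and 6.29% relative to the median site). Relative to the median site 7 of the 51 were higher and 3 lower. The fifth of the higher ones lay at -41957 from Lcn2 (change 1.24 ± 0.32, adjusted p = 0.0048). As fitted, the shares near the 9 genes were close to those of all sites. Most of these sites are far from the start, and windows of this size hold other genes too, up to 8 (around Ftl1).

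**Figure D3:**
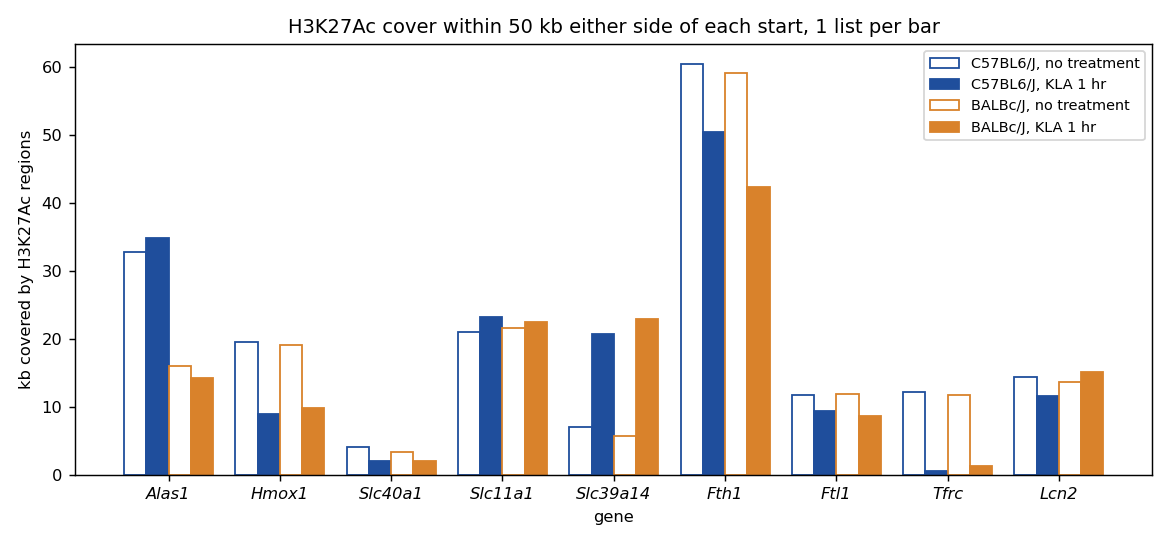
Length in kb (vertical axis) covered by H3K27Ac regions within 50 kb either side of each start, with 1 bar per list; open bars no treatment, filled bars KLA 1 hr, blue C57BL6/J and orange BALBc/J. After KLA the cover is larger at Slc39a14 and smaller at Hmox1 and Tfrc in both strains, and at Alas1 it is 32.8 and 34.8 kb in C57BL6/J against 16.0 and 14.3 kb in BALBc/J.

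Between the strains, Alas1 was the 1 gene of the 9 called in RNA-Seq, higher in C57BL6/J, where 3.7% of all genes were called, 1.19% higher and 2.52% lower (3.58%, 1.55% and 2.03% relative to the median gene). It was at 3028, 4129 and 8196 tags per 10 M in C57BL6/J and 821, 654 and 697 in BALBc/J without treatment, at 1 hr and at 4 hr. Every C57BL6/J library was above every BALBc/J library, by 3.69-, 6.31- and 11.8-fold in that order. The fitted difference was 2.68 ± 0.27 on the log2 scale (adjusted p = 0.0011), or 2.78 relative to the median gene. The strain contrast averages the 3 treatments, which act as its replicates.

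Nascent Alas1 RNA differed as well, though by less. GRO-Seq gave 208 tags per 10 M without treatment and 306 with KLA in C57BL6/J, and 76.6 and 118 in BALBc/J, a difference of 1.32 ± 0.33 (adjusted p = 0.0091). Alas1 was the 1 of 7 tested genes called there, where 0.9% of all genes were, 0.417% higher and 0.483% lower (1.26%, 0.955% and 0.307% relative to the median gene). The ratios between strains were 2.71 and 2.59. The GRO-Seq and RNA-Seq differences were not tested against each other. The fitted KLA difference of nascent Alas1 was 0.55 ± 0.33 (adjusted p = 0.21), with 0.54 in C57BL6/J and 0.56 in BALBc/J. In polyadenylated RNA at 4 hr the strains went opposite ways, by 1.43 and -0.23. The common response, 0.60 ± 0.34 (adjusted p = 0.16), was not called as fitted but was called relative to the median gene (1.03), without the BALBc/J untreated library (1.21) and without the BALBc/J 4 hr library (1.24).

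The other 4 genes of the table around the Alas1 start (Ppm1m, Twf2, Tlr9 and Poc1a) differed between strains by -0.05 to 0.88 on the log2 scale and none was called. Mesothelial and fibroblast genes moved with strain too. All 10 were detected, summing to 1983 to 2964 tags per 10 M in C57BL6/J and 3897 to 4567 in BALBc/J. Of the 9 tested, 4 (Dcn, Upk3b, Col1a1 and Lum) were lower in C57BL6/J, where 2.52% of all genes were. Relative to the median gene, where 2.03% of all genes were lower, Dcn was not called (-0.97) and the others were. Of the resident peritoneal macrophage list, Marco, a scavenger receptor, was higher in C57BL6/J by 2.71 ± 0.22 (adjusted p = 0.00040). Its level was 71.8 to 129 tags per 10 M against 4.03 to 7.8 in BALBc/J. Gata6, Timd4, Cd209b and Garnl3 of the same list went the other way without treatment, at 1 hr and at 4 hr. Of these, Gata6 and Timd4 were not called between strains, and Cd209b and Garnl3 were too low to be tested. Gata6 was at 63.2 to 130 tags per 10 M in C57BL6/J against 126 to 256 in BALBc/J. Vsig4 and Selp went different ways at different times. Of the defining macrophage genes, the engulfment receptor Mertk was higher in C57BL6/J in RNA-Seq (1.33 ± 0.30, adjusted p = 0.032) and in nascent RNA (1.88 ± 0.34). The mannose receptor Mrc1 was higher there in nascent RNA (1.32 ± 0.33). Cd14 of the same list was lower in C57BL6/J without treatment, at 1 hr and at 4 hr, and was not called between strains. It was at 1939, 13525 and 17974 tags per 10 M against 3890, 26102 and 22483 in BALBc/J. The part of what these lists mark in the strain difference of Alas1 was not tested. In bulk samples, fewer cells of a type and less RNA per cell cannot be told apart.

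Binding of p65 near the Alas1 start was higher in C57BL6/J. At -137, over the promoter shown above, the replicates had 228 and 252 tags per 10 M in C57BL6/J and 79.0 and 71.7 in BALBc/J, a difference of 1.66 ± 0.37 (adjusted p = 0.0046). At 2964, inside the gene, they had 349 and 396 against 139 and 105 (1.62 ± 0.34, adjusted p = 0.0021). At -23600 they had 38.3 and 70.3 against 14.0 and 19.3 (1.60 ± 0.44, adjusted p = 0.034). These 3 were the called ones of 61 p65 sites tested near the 9 genes, where 2.21% of the 36541 sites tested were called, 1.61% higher in C57BL6/J and 0.605% lower. The median site was itself higher in C57BL6/J by 0.32, and relative to it the 3 differences were 1.30, 1.26 and 1.24 and none was called, where 0.876% of sites were, 0.296% higher and 0.58% lower. None was called either when C57BL6/J replicate 1 or C57BL6/J replicate 2 was left out, and the last was not called without BALBc/J replicate 1.

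Peaks listed in one strain alone were counted at this locus as well, with no test. Of 20 p65 sites near Alas1, 9 were in all 4 lists, 7 in C57BL6/J lists only and 0 in BALBc/J lists only. Of 21 PU.1 sites, 9 were in all 4 lists, 8 in C57BL6/J lists only and 2 in BALBc/J lists only, and of 17 C/EBPa sites 5, 6 and 1. In C57BL6/J lists only, these are 35% of the p65, 38.1% of the PU.1 and 35.3% of the C/EBPa sites near Alas1. In the whole genome 20.3% of p65 sites were in C57BL6/J lists only and 11.3% in BALBc/J lists only. For PU.1 sites these shares were 15.7% and 18.5%, and for C/EBPa sites 15.9% and 23.3%. In both C57BL6/J lists and no BALBc/J list were 1 p65 site near Alas1 (5%, whole genome 6.72%), 3 PU.1 sites (14.3%, 2.86%) and 2 C/EBPa sites (11.8%, 1.92%). The reverse held for 0, 2 and 0 sites. Each other p65 site of C57BL6/J alone was in 1 list. The one at -12908 (425 tags per 10 M) lay near a site at -13287 of the other 3 lists (404 in C57BL6/J, 231 and 286 in BALBc/J). At 2.5 kb upstream, PU.1 (24.9 and 21.4 tags per 10 M at -2556) and C/EBPa (30.1 and 47.7 at -2471) had peaks in both C57BL6/J lists and in neither BALBc/J list. Near 3 kb inside the gene, C/EBPa (at 2959) had 94.2 tags per 10 M before and 191 after KLA in C57BL6/J, and in BALBc/J none listed and then 88.3. PU.1 there (at 2895) had 40.1 and 99.0, and in BALBc/J none listed and then 27 tags per 10 M.

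**Figure D4:**
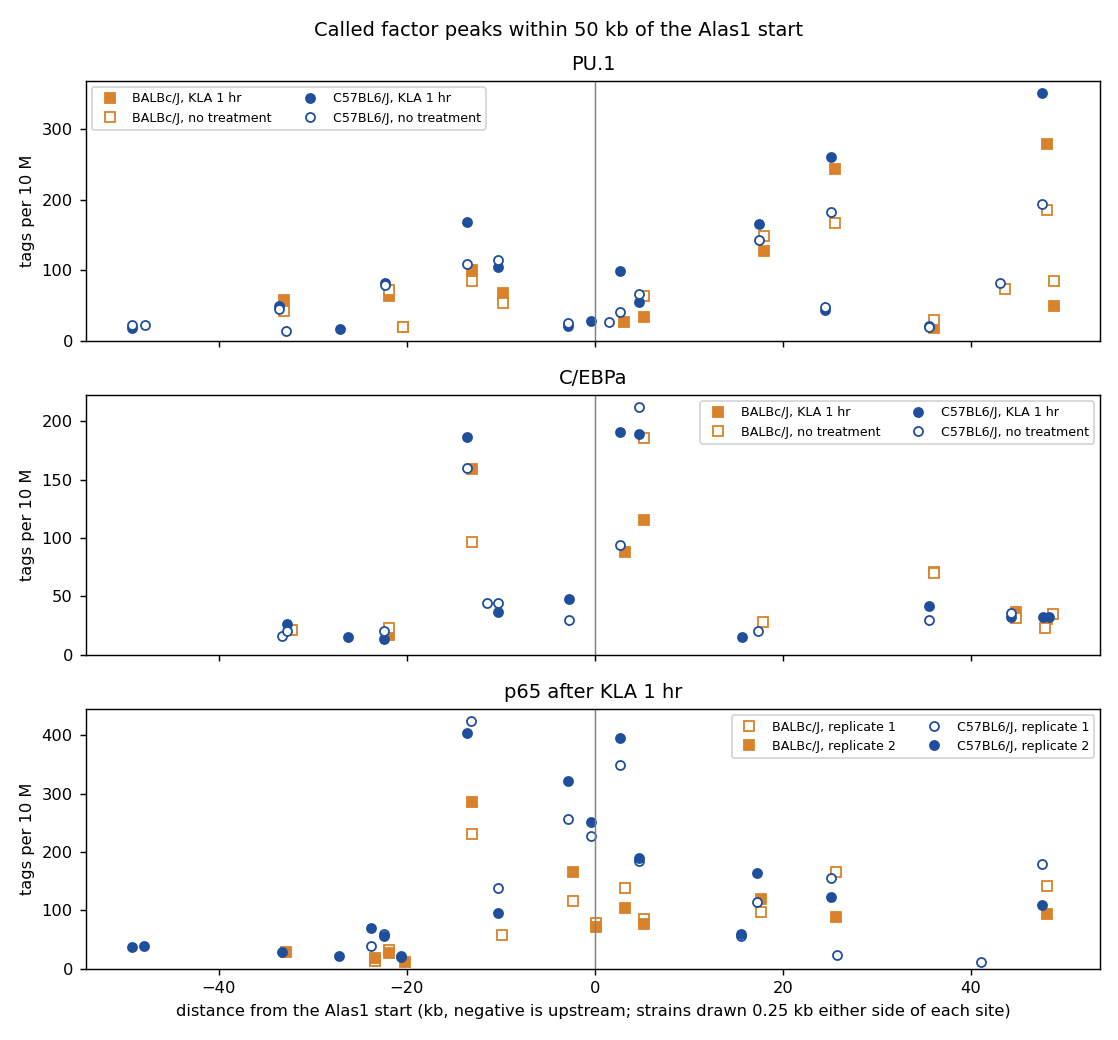
Tags per 10 M of each called peak (vertical axis) against distance in kb from the Alas1 start (horizontal axis) for PU.1, C/EBPa and p65; each symbol is 1 list, blue circles C57BL6/J and orange squares BALBc/J, filled for KLA 1 hr in the upper panels and for replicate 2 in the p65 panel. Near the start the p65 peaks are higher in C57BL6/J (228 and 252 against 79.0 and 71.7), and peaks with no orange partner were not listed in BALBc/J.

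Among sites present in all lists, no PU.1 or C/EBPa site near the 9 genes was called between strains by limma. In the genome 2.06% of PU.1 sites were called, 0.799% higher and 1.26% lower (1.99%, 0.978% and 1.01% relative to the median site), and 2.53% of C/EBPa sites, 0.594% higher and 1.93% lower (2.24%, 1.09% and 1.15%). At an unadjusted p under 0.05 there were 8 of 70 PU.1 sites (11.4%, all sites 14.5%) and 7 of 51 C/EBPa sites (13.7%, all sites 17.8%) near these genes. The H3K27Ac region over the Alas1 start was 3.70 kb long with 627 tags per 10 M in C57BL6/J without treatment and 9.93 kb with 1160 after KLA. In BALBc/J it was 1.95 kb in both lists, with 279 and 259 tags per 10 M. H3K4me2 over the start was 3.83 and 4.01 kb long in C57BL6/J and 2.38 and 2.36 kb in BALBc/J.

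The rest of the pathway was read from lists of genes. Each count at 4 hr stands against 8.1% of all genes higher and 21.3% lower (11.7% and 9.74% relative to the median gene), and each in nascent RNA against 4.31% and 15.5% (6.78% and 7.08%). Of 8 tested genes of haem synthesis, 5 fell at 4 hr and none rose, with a median change of -1.04 (all genes -0.47). Among those that fell were Cpox (-1.33 ± 0.23), Fech (-1.07 ± 0.19), Alad (-1.06 ± 0.21) and Ppox (-1.03 ± 0.21), enzymes of steps after that of Alas1. Relative to the median gene these 4 were no longer called (-0.60 to -0.90), Alas1 was higher, and the list's median was -0.62. Between strains Alad was lower in C57BL6/J by 1.19 ± 0.17 (adjusted p = 0.0056), the direction opposite to that of Alas1. Of 9 tested genes of haem degradation and haem transport, 1 rose at 4 hr, the haemoglobin-binding haptoglobin Hp (1.40 ± 0.24), and 4 fell, Hmox1, the hemopexin receptor Lrp1 (-1.18 ± 0.21), biliverdin reductase Blvra (-1.09 ± 0.16) and the haem and folate carrier Slc46a1 (-1.05 ± 0.20), with a median of -0.90. Relative to the median gene Hp was still higher (1.83) and none was lower, the 4 lying at -0.62 to -0.96. In nascent RNA 4 of 6 fell, Lrp1 (-1.39 ± 0.25), Hmox2 (-1.35 ± 0.36), Blvrb (-1.19 ± 0.34) and Hmox1, with a median of -1.15 (all genes -0.34), but relative to the median gene only Lrp1 did (-1.04).

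Of 9 tested iron uptake genes, 3 rose at 4 hr, Lcn2, Slc39a14 and the metalloreductase Steap4 (1.50 ± 0.24), and 1 fell, the endosomal ferrireductase Steap3 (-2.13 ± 0.19), with a median of -0.31, and all 4 were also called relative to the median gene. In nascent RNA Slc39a14 rose and Tfrc, Steap3 (-1.61 ± 0.35) and transferrin itself, Trf (-1.05 ± 0.35), fell, of 6 tested, though Trf not relative to the median gene (-0.70). Of 8 tested genes of storage and export, the hormone hepcidin Hamp (1.99 ± 0.21) and the ferroxidase Cp (1.46 ± 0.19) rose at 4 hr and Slc40a1 fell, with a median of -0.07, and these 3 were also called relative to the median gene. None of 5 was called in nascent RNA. Of 14 genes of iron regulation and mitochondrial iron, the mitochondrial iron importer Slc25a37 rose at 4 hr (2.67 ± 0.18) and at 1 hr in nascent RNA (2.05 ± 0.32). Hfe (-1.06 ± 0.18), Slc25a38 (-1.05 ± 0.18) and the iron regulatory protein Aco1 (-1.03 ± 0.18) fell at 4 hr, with a median of -0.61, and Hfe also fell in nascent RNA (-1.19 ± 0.23, of 11 tested). Relative to the median gene Slc25a37 was still called in both assays, and Hfe, Slc25a38 and Aco1 were not (-0.60 to -0.63 at 4 hr, and -0.84 for nascent Hfe).

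Of 7 tested regulators around BACH1, the haem-binding repressor of Hmox1, and NRF2, its activator, Maff rose at 1 hr (3.52 ± 0.18) and at 4 hr (1.97 ± 0.18) and Hif1a at 4 hr (1.59 ± 0.17). Bach1 itself fell at 4 hr (-2.02 ± 0.34) and in nascent RNA (-1.07 ± 0.33, or -0.71 and not called relative to the median gene), with a median at 4 hr of 0.49, and Mafk was lower in C57BL6/J by 1.12 ± 0.14. Among 10 antioxidant genes that share NRF2 with Hmox1, the cystine transporter Slc7a11 rose (2.68 ± 0.37) and Gclc, an enzyme of glutathione synthesis, fell (-1.91 ± 0.20) at 4 hr, with a median of -0.47. In nascent RNA both were also called, at 2.11 ± 0.33 and -1.19 ± 0.36, of 9 tested, the second not relative to the median gene (-0.83). At 1 hr no other gene of these lists was called in RNA-Seq.

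The genes most alike to each called gene over the 6 RNA-Seq libraries were named by the Pearson correlation on the log scale, as a description. For Alas1 they were Hdac1 (r = 0.986), at 25.3, 23.9 and 50.3 tags per 10 M in C57BL6/J and 5.72, 1.62 and 5.18 in BALBc/J, and Pcbp2 (r = 0.982), at 971 to 1124 in C57BL6/J and 828 to 885 in BALBc/J. For Lcn2 they were Il15 and Serpina3f, for Slc39a14 Trip10 and Oas3, for Slc40a1 Samd8 and Lonrf3, and for Hmox1 Slc35b3 and Lair1, each with r of 0.998 to 0.999 over libraries that share the same treatments.

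Other cell type lists moved little or through few genes. Eosinophil genes summed to 56.4 to 94.8 tags per 10 M, B cell genes to 38.0 to 75.9 and resident peritoneal macrophage genes to 322 to 430. Within the last list genes moved in different directions. Timd4 rose at 4 hr (1.86 ± 0.32, adjusted p = 0.0021, and 2.29, still called, relative to the median gene). Gata6 went from 130 to 63.2 tags per 10 M in C57BL6/J and from 256 to 126 in BALBc/J, and was not called. Sums were higher at 4 hr than without treatment for the T and NK cell list (189 to 241 against 8.83 to 21.3, through Lck). The same held for the mast cell list (387 to 450 against 74.8 to 115, through Hdc). There Cpa3 fell by 1.26 ± 0.20, or 0.83 and not called relative to the median gene, and Tpsb2 and Cma1 were lower in both strains. Dendritic cell genes summed to 122 to 153 against 54.8 to 69.2, mostly through Ccr7. In both strains Xcr1 was higher too, and Flt3 and Cd209a were lower. Red pulp macrophage genes summed to 2133 to 2471 against 95.4 to 120, through Vcam1. In that list Spic went from 9.42 to 3.45 tags per 10 M in C57BL6/J and from 6.24 to 1.15 in BALBc/J. Cd163 went from 15.3 to 3.95 and from 15.6 to 3.45, and both genes were too low to be tested. The part of these lists in the changes of the 9 genes was not tested.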

How the data were processed

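Per the submitters' processing notes, alignment used Bowtie 0.12.7, further steps used HOMER, and the build was mm9. mm9 is the C57BL/6J sequence, and loss of BALBc/J tags at variants was not tested. The authors' expression table has 29028 rows of RefSeq transcripts with log2 values, deposited as log2 of 1 plus exon tags per 10 M tags plus a random part under 1 tag, not per length, per the file headers and the values, and whole tags were recovered by rounding down. Rows without a symbol (21) were left out. Use of strand in counting was not given in the sources used here. Peaks were called by the authors on each library against an input, per the file headers, and the tags of a peak are the authors' deposited signal per 10 M. For p65, the C57BL6/J input also served both BALBc/J lists, and the p65 headers name tag directories by other replicate numbers than the labels.

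Tests used limma 3.58.1 in R 4.3.3 (lmFit, eBayes with a trend), adjusted by Benjamini-Hochberg over all features: genes with at least 20 tags per 10 M in 2 libraries, pseudocount 10, and sites called in all 4 lists with centres chained within 100 bases, pseudocount 1. The residual had 2 degrees of freedom for RNA-Seq and 1 for GRO-Seq. The fit was tested on simulated data. The genes, the 7 pathway lists, the marker lists and the rule for named genes (all 9, up to 6 called genes of a list with the largest change, the 2 most alike genes, and per factor the peak with the most tags and those within 1 kb of a start) were chosen with earlier results of these data known, and sites called by a test are named too. Intervals cover counting error only. Alternatives were other pseudocounts, filters, centring, chaining and left-out libraries. Of 40 samples, 10 were not analysed here. Some genes of the lists are counted but not reported by name here.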

Additional observations from a re-analysis of the deposited data

Results flagged for a closer look

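In RNA-Seq the response to KLA went opposite ways in the strains for some of the genes, each from 1 library per strain and treatment. The difference was not tested, since no library is left over to estimate its error. Alas1 had the largest, with responses at 4 hr of 1.43 in C57BL6/J and -0.23 in BALBc/J on log2(tags per 10 M + 10), a difference of 1.67, and at 1 hr of 0.45 and -0.32, a difference of 0.77. Tfrc at 1 hr had 0.21 and -0.34 (difference 0.55) and Ftl1 -0.16 and 0.19 (difference -0.35). Fth1 at 4 hr had 0.34 and -0.22 (difference 0.56). Hmox1 at 1 hr had 0.03 and -0.10 (difference 0.13), both smaller than the standard error of its fitted change, 0.16. No gene tested in GRO-Seq had responses of opposite sign.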

How the results depend on the processing

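The number of the 9 genes called in RNA-Seq after KLA for 1 hr and for 4 hr (0 and 4) stayed within 1.5 times under every pseudocount, filter and centring tried and without any single library, but centring exchanged Hmox1, no longer called at 4 hr, for Alas1. The count for the strain contrast fell from 1 to 0 in RNA-Seq and in GRO-Seq when no filter on low values was used, and that for KLA in GRO-Seq fell from 3 to 0 without the filter and to 1 with a pseudocount of 50; the fitted changes kept their direction, with adjusted p of 0.23 to 0.42 without the filter in GRO-Seq and 0.26 for Alas1 in RNA-Seq. No value of a gene or site changed direction in a call. The number of p65 sites called near these genes (3) became 0 with lists centred on their median site. The calls also changed when 1 p65 library was left out, which leaves 1 library in that strain. Without BALBc/J replicate 2 the difference at the p65 site -12348 from Slc40a1 was 2.03, against 1.37 in the main fit. The number of called p65 sites became 7 with the replicate number as a block. Whether these numbers pair the libraries is not given: over 36541 sites the deviations of same-numbered libraries correlated at 0.65, and the block moved all called sites from 808 to 2680. No paired analysis was possible for the other assays, which have 1 library per group. Nascent Lcn2 and Slc40a1 were too low to pass the filter of 20 tags per 10 M in 2 libraries.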
